A study of Mus musculus with 6 samples.

Results

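The genes of the mTOR complexes and of their closest regulators were examined in T cells kept in the cold. The group holds 10 genes, Mtor, Mlst8, Rptor, Akt1s1, Rictor, Tsc1, Tsc2, Rheb, Rragc and Rps6kb1, out of 41079 genes in the deposited table. Each was taken by its exact symbol and had 1 row. The cells were D10, a mouse helper T cell line that is 1 clone, labelled as lymph node CD4+ T cells. Cold-acclimated cells had spent 24 h at 26°C (n = 3) and non-acclimated cells 24 h at 37°C (n = 3). RNA was poly(A)-selected and sequenced from strand-specific paired-end libraries. The labels speak of old and new batches of extraction without assigning libraries to them, so batch and replicate cannot be told apart.

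mTOR is a protein kinase that couples nutrients and growth factors to protein synthesis and growth. It works in a pair of complexes that share the kinase and the subunit mLST8: mTORC1, built on raptor (Rptor), and mTORC2, built on rictor (Rictor). mTORC1 is switched on at the lysosome by the GTPase Rheb and by Rag GTPases that carry the amino acid signal, and it is held back by the TSC complex, which inactivates Rheb. In helper T cells the pathway is known for its control of growth, metabolism and effector fate after activation.

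Abundance was read as TPM (transcript abundance per length), in which reads are divided by gene length and every library is scaled to the same total. Whole read numbers could be recovered behind the TPM of 100% of the 21195 detected genes, within a tolerance of 1e-06 reads. The step of each gene was chosen to make its values whole within this tolerance. The share therefore does not itself show that the read numbers are right. Summed over genes, the recovered read numbers came to 16899628, 21462543 and 31290854 reads in non-acclimated replicates 1, 2 and 3. The sums at 26°C were 19605883, 20579363 and 25169484 reads. A member rested on between 207 and 4034 reads in a library, the fewest being those of Mlst8, for which counting error alone comes to 7.0%.

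The labelled cell type was checked against markers. Cd4, the coreceptor that names these cells, stood at 1.09, 0.0351 and 309.7 TPM in non-acclimated replicates 1, 2 and 3 and at 1.30, 0.352 and 328 TPM after 24 h at 26°C. It was thus near 0 in replicates 1 and 2 at both temperatures, against the label, and abundant in replicate 3 alone. Thy1 was at 0 in every library. Cd3g, a chain of the T cell receptor complex and the most abundant of the 8 T cell markers, was between 954 and 1847 TPM in all 6 libraries. Replicate 2 was the lowest in Cd28, a costimulatory receptor, with 7.35 and 5.61 TPM at 37°C and 26°C against 27.9 to 54.5 TPM in the other libraries. The same held for Cd3d, another receptor chain, with 64.3 and 78.6 TPM against 240.1 to 332 TPM. The 8 markers summed to 3532, 1945 and 2933 TPM at 37°C and to 3234, 2390 and 2981 TPM at 26°C.

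Markers of other cells were low with 1 exception. The 6 B cell markers summed to at most 1.11 TPM in any library, with Ms4a1 and Blnk at 0 and Pax5 the most abundant. The 6 macrophage and monocyte markers summed to 16.7 and 21.4 TPM in replicate 3 at 37°C and 26°C and to at most 3.75 TPM elsewhere, with Lyz2 the most abundant. Of the 5 erythroid markers Hba-a1 alone was abundant, while Hbb-bs and Hbb-bt were at 0. The erythroid sums were 189, 79.9 and 485 TPM at 37°C and 85.4, 61.3 and 474 TPM at 26°C. Of the 10 marker genes that could be tested between temperatures with limma, 0 had an adjusted p under 0.05 and 0 an unadjusted p under 0.05. Replicate 3 thus stood apart in Cd4 and replicate 2 in Cd28 and Cd3d at both temperatures, and the part of this in the results was not tested beyond leaving each replicate out. The labels name D10 for every library, and what lies behind these marker differences between replicates was not tested. The spread behind the p-values may hence hold more than that between cultures of 1 clone.

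Most genes had a lower TPM in the cold. The test was limma on log2(TPM + 1), over 12227 genes averaging at least 1 TPM, and a gene passed at a Benjamini-Hochberg adjusted p under 0.05. Adding 1 before the logarithm shrinks the fold changes of weakly expressed genes. Of all tested genes, 404 (3.30%) passed as higher and 2123 (17.4%) as lower in cold-acclimated cells, and the median log2 fold change was -0.34. When libraries were rescaled by the median of ratios, which the study's methods name, that median was 0.03, and 1056 genes (8.64%) passed as higher and 1141 (9.33%) as lower. The split of calls thus depended on the scaling, so changes are also given as differences from the all-gene median. TPM is a share of a library, in which less RNA per cell and fewer expressing cells cannot be told apart.

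All 10 members were tested. Rptor, the raptor gene, was lower in cold-acclimated cells and was the only member to pass, with a cold-acclimated mean at 47.5% of the non-acclimated one. Mtor, Tsc1 and Tsc2 had cold-acclimated means at 54.6%, 53.2% and 54.1% and did not pass. These calls hold for the fit with temperature as the only term. With the replicate number as a block, Mtor, Tsc1 and Tsc2 passed as lower too (limma adjusted p = 0.040, 0.034 and 0.027), beside 29.0% of all tested genes. Rictor, Akt1s1 and Rragc had means above those at 37°C, and Mlst8, Rheb and Rps6kb1 means slightly below them, without passing. With limma, 1 of 10 members was lower, beside 17.4% of all tested genes, and 0 were higher, beside 3.30%. At an unadjusted p under 0.05, 4 members were lower and 0 higher in limma, beside 30.0% and 7.75% of all tested genes. Voom on the recovered reads also gave 4 and 0, beside 26.2% and 9.91%.

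**Figure D1:**
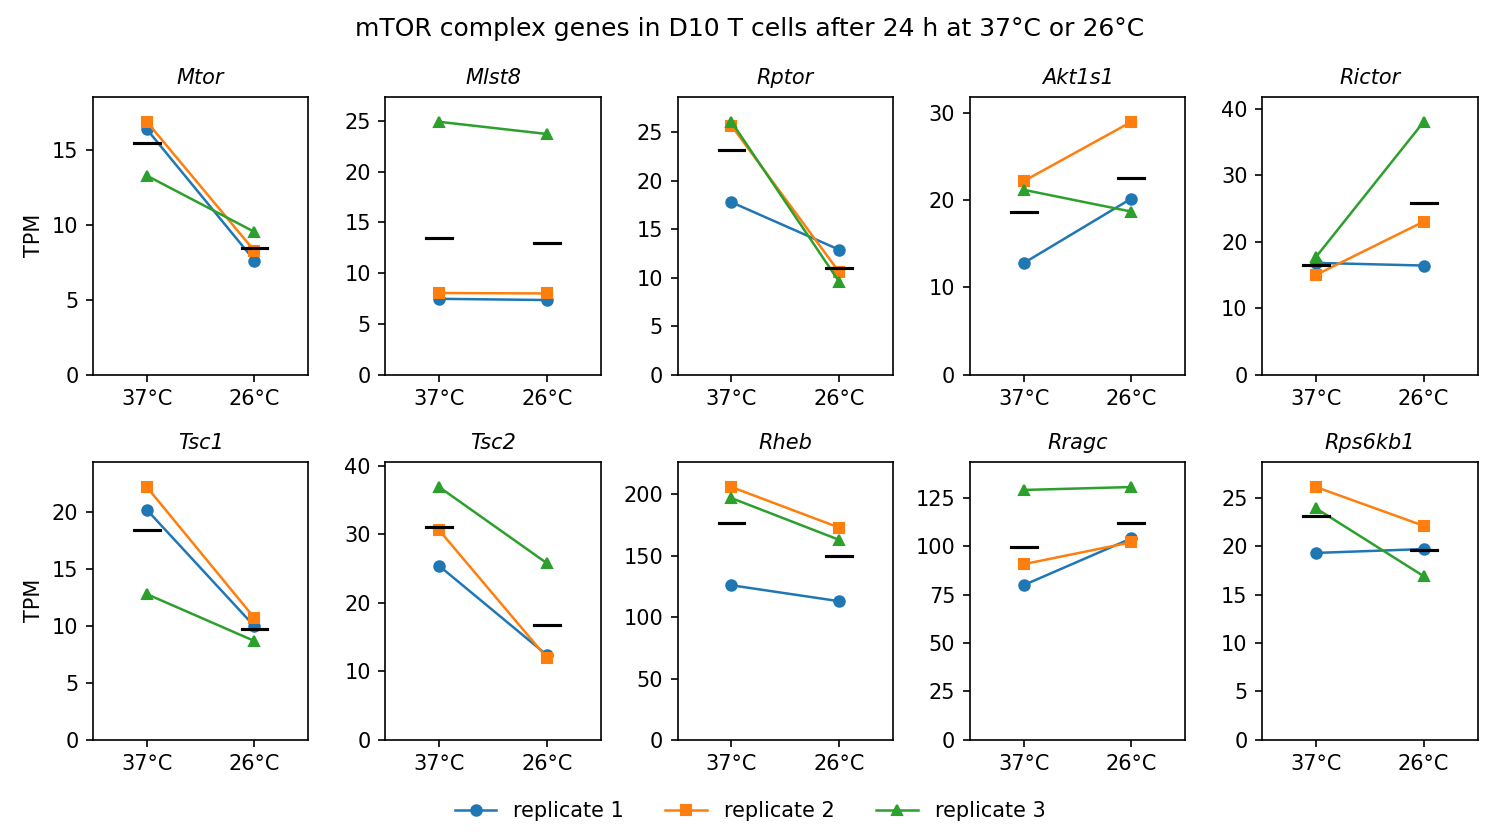
TPM of the 10 members (vertical axes, each from 0) at 37°C and 26°C, where each line joins the 2 libraries with the same replicate number and black bars are means of 3 libraries. Mtor, Rptor and Tsc1 show no overlap between temperatures, and Mlst8 is near 8 TPM in replicates 1 and 2 and near 24 TPM in replicate 3.

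The core of both complexes is Mtor itself, the kinase subunit. It measured 16.4, 16.9 and 13.3 TPM in non-acclimated replicates 1, 2 and 3 and 7.63, 8.27 and 9.54 TPM in the cold-acclimated ones. Every cold-acclimated library lay below every non-acclimated one, and the gap was narrowest in replicate 3. The means were 15.5 ± 1.93 and 8.48 ± 0.974 TPM (SD, n = 3). The log2 fold change was -0.80 (SE 0.24) and did not pass in limma (adjusted p = 0.052). With the replicate number as a block, limma gave the same log2 fold change and an adjusted p of 0.040, and over all alternatives the adjusted p ran from 0.025 to 0.56. Mtor also passed without cold-acclimated replicate 3 (-0.88, limma adjusted p = 0.040) and without both libraries of replicate 3 (-0.98, 0.025). It was smaller with median of ratios scaling (-0.42, limma adjusted p = 0.23), length centring (-0.28, 0.40) and quantile normalization (-0.21, 0.56). Taken from the all-gene median, Mtor differed by -0.46.

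Mlst8, which encodes the WD-repeat subunit that steadies the kinase in both complexes, behaved differently. Its TPM was 7.47, 8.04 and 24.9 at 37°C and 7.35, 8.00 and 23.7 at 26°C. Within each replicate the temperatures were nearly equal, while replicate 3 stood far above the other 2 at both temperatures. The spread between replicates (SD 9.91 and 9.27 TPM) was many times the difference between the means of 13.5 and 13.0 TPM. The log2 fold change was -0.03 (SE 0.57, limma adjusted p = 0.98), and it was -0.01 (SE 0.25) without replicate 3. Its sign turned under median of ratios scaling, to 0.34.

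Part of the Mlst8 locus is shared. Bricd5, on the opposite strand, overlaps it by 1586 bases and measured 13.8, 16.5 and 47.9 TPM at 37°C and 14.4, 15.4 and 45.1 TPM at 26°C. Both genes were thus high in replicate 3 and alike between temperatures. The strand setting of the read counting is not given in the sources used here, so reads of the overlap cannot be assigned with certainty.

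Rptor encodes raptor, the scaffold that presents substrates to mTORC1. It measured 17.8, 25.7 and 26.1 TPM at 37°C and 12.9, 10.6 and 9.60 TPM at 26°C. All cold-acclimated libraries lay below all non-acclimated ones, with the narrowest gap in replicate 1. The means were 23.2 ± 4.68 and 11.0 ± 1.70 TPM (SD, n = 3), a log2 fold change of -1.0007 (SE 0.26, limma adjusted p = 0.035). The study also required a change of at least 1 on the log2 scale, in DESeq2 on counts scaled by the median of ratios. The value here is from limma on TPM as deposited, so it is not a like measure, and it was only just past 1 in size. With median of ratios scaling it was -0.61 (limma adjusted p = 0.14). The difference relative to all tested genes was -0.66.

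The Rptor call was not stable. Without replicate 3 the log2 fold change was -0.82 (limma adjusted p = 0.067), and with median of ratios scaling it was -0.61 (limma adjusted p = 0.14). Leaving out any 1 library other than cold-acclimated replicate 3 also ended the call, with limma adjusted p between 0.061 and 0.13. Its log2 fold change stayed between -1.28 and -0.46, and its limma adjusted p ran from 0.027 with the replicate block to 0.31 without replicate 2.

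Akt1s1 encodes PRAS40, an inhibitory subunit of mTORC1 that AKT phosphorylates. Its TPM was 12.8, 22.2 and 21.2 at 37°C and 20.2, 29.0 and 18.7 at 26°C. It was higher in the cold in replicates 1 and 2 and lower in replicate 3, and the groups overlapped. The log2 fold change was 0.27 (SE 0.30, limma adjusted p = 0.56), or 0.61 relative to all tested genes. It was 0.03 without non-acclimated replicate 1, 0.09 without cold-acclimated replicate 2 and 0.67 with median of ratios scaling.

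Rictor encodes the scaffold of mTORC2, the complex that phosphorylates AKT. It measured 16.8, 15.0 and 17.7 TPM at 37°C and 16.4, 23.0 and 38.0 TPM at 26°C. The non-acclimated libraries were close together, whereas the cold-acclimated ones ranged from no difference in replicate 1 to the highest value in replicate 3, and the groups overlapped. The means were 16.5 ± 1.40 and 25.8 ± 11.1 TPM (SD, n = 3), and the log2 fold change was 0.54 (SE 0.33, limma adjusted p = 0.27). Relative to all tested genes the difference was 0.88, and 87.7% of tested genes had a lower log2 fold change than Rictor.

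The Rictor value varied with the libraries and with the scaling. Without replicate 3 its log2 fold change was 0.28 (limma adjusted p = 0.46). After centring on genes of similar length it was 1.06 and passed (limma adjusted p = 0.049), in a fit in which 10.4% of all genes passed as higher and 7.16% as lower. With the replicate block and median of ratios scaling together it was 0.93 and passed (limma adjusted p = 0.036), where 16.9% of genes passed as higher and 16.9% as lower. With median of ratios scaling alone the same 0.93 did not pass (limma adjusted p = 0.066), and over all alternatives the adjusted p ran from 0.036 to 0.62.

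The other tested subunits of mTORC2 had negative log2 fold changes. Mapkap1, which encodes the subunit SIN1, measured 73.7, 87.1 and 56.8 TPM at 37°C and 11.2, 15.7 and 32.7 TPM at 26°C. All cold-acclimated values lay below all non-acclimated ones, with the smallest gap in replicate 3. Its log2 fold change was -1.93 (SE 0.39, limma adjusted p = 0.018). Leaving out any 1 of replicates 1 and 2 of either group ended the call (limma adjusted p between 0.063 and 0.076). Prr5l, another subunit, had -1.23 (SE 0.46) and did not pass (limma adjusted p = 0.093). It passed with the replicate block (limma adjusted p = 0.035) and without cold-acclimated replicate 3 (-1.63, 0.029), with an adjusted p of up to 0.39 over the alternatives. Prr5 was at 0 TPM in every library. Of the 3 tested genes specific to mTORC2, 1 was lower and 0 were higher, beside 17.4% and 3.30% of all tested genes. At an unadjusted p under 0.05, 2 were lower and 0 higher, beside 30.0% and 7.75%.

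Ratios within a library do not depend on its scaling, so 5 ratios of TPM were compared between temperatures. The ratio of Rictor to Rptor was 0.942, 0.581 and 0.678 at 37°C and 1.27, 2.18 and 3.96 at 26°C. Every cold-acclimated library had the higher ratio, by 1.35, 3.74 and 5.85 times within replicates 1, 2 and 3. The log2 ratio differed by 1.63, with an exact 2-sided permutation p of 0.10, the smallest that 3 against 3 libraries can give, and 0.25 after adjustment over the 5 ratios.

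Within mTORC1, the ratio of Akt1s1 to Rptor was 0.717, 0.863 and 0.811 at 37°C and 1.56, 2.75 and 1.94 at 26°C. These groups did not overlap either, with a log2 difference of 1.35 (exact permutation p = 0.10, adjusted 0.25). The ratio of Mlst8 to Mtor was 0.456, 0.477 and 1.87 at 37°C and 0.964, 0.967 and 2.49 at 26°C. It was higher in the cold in each replicate, but replicate 3 at 37°C exceeded replicates 1 and 2 at 26°C (log2 difference 0.84, exact permutation p = 0.30). Leaving out cold-acclimated replicate 3 gave a difference of 0.38, and leaving out non-acclimated replicates 1, 2 and 3 in turn gave 0.49, 0.52 and 1.51.

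**Figure D2:**
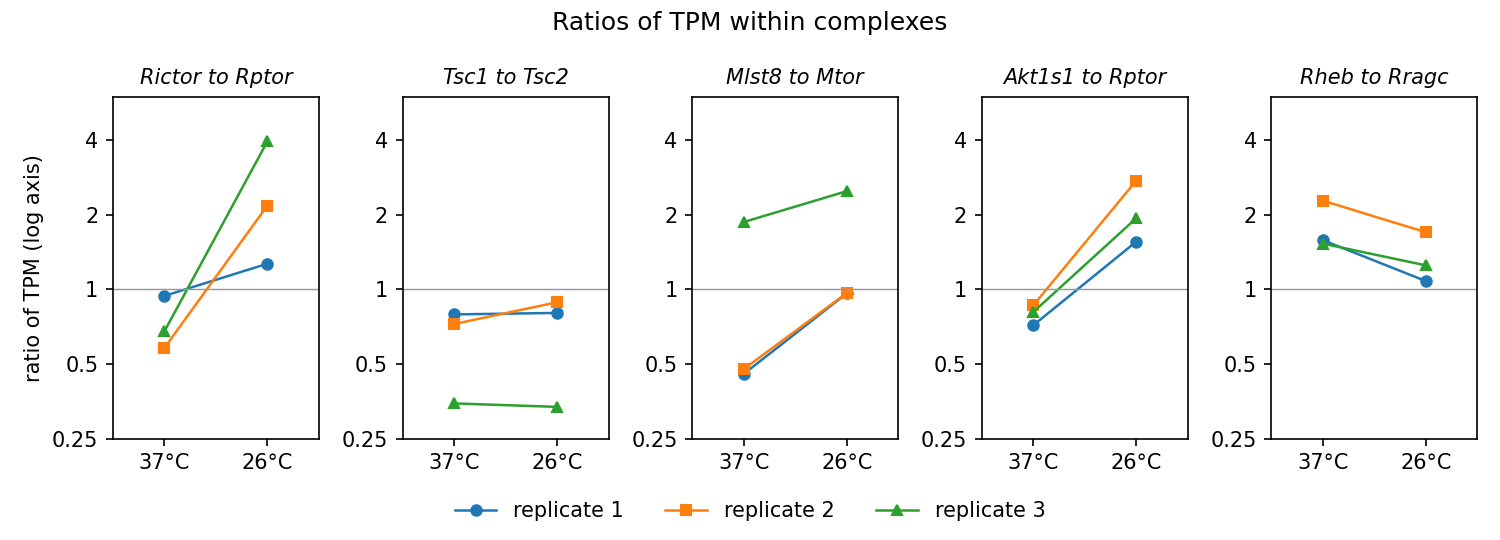
Ratios of TPM between 2 members (vertical axes, log scale) at 37°C and 26°C, with a line for each replicate number and a grey line at a ratio of 1. The Rictor to Rptor and Akt1s1 to Rptor ratios are below 1 in all non-acclimated libraries and above 1 in all cold-acclimated libraries.

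The TSC complex inactivates Rheb through the GTPase-activating subunit Tsc2, which Tsc1 stabilises. Tsc1 measured 20.2, 22.2 and 12.8 TPM at 37°C and 9.97, 10.7 and 8.68 TPM at 26°C. The groups did not overlap, and replicate 3 was the lowest at both temperatures. Its log2 fold change was -0.82 (SE 0.28, limma adjusted p = 0.075).

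Tsc2 measured 25.4, 30.6 and 36.9 TPM at 37°C and 12.4, 12.0 and 25.8 TPM at 26°C. It was lower in the cold in every replicate, but replicate 3 at 26°C lay just above replicate 1 at 37°C. Its log2 fold change was -0.92 (SE 0.34, limma adjusted p = 0.092). The ratio of Tsc1 to Tsc2 was 0.793, 0.725 and 0.347 at 37°C and 0.804, 0.888 and 0.336 at 26°C, a log2 difference of 0.09 (exact permutation p = 0.70). Its sign turned without non-acclimated replicate 3 (-0.29) and cold-acclimated replicates 1 (-0.10) and 2 (-0.17), and without cold-acclimated replicate 3 it was 0.53. Replicate 3 had less Tsc1 per Tsc2 than the others at both temperatures.

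Both TSC genes passed in other fits. With the replicate block the adjusted p in limma was 0.034 for Tsc1 and 0.027 for Tsc2. Without replicate 3 their log2 fold changes were -0.97 and -1.13 (limma adjusted p = 0.024 and 0.016). With median of ratios scaling they were -0.43 and -0.52 (limma adjusted p = 0.31 and 0.25). Single libraries also mattered: Tsc1 passed without non-acclimated replicate 3 (-1.04, limma adjusted p = 0.040) and Tsc2 without cold-acclimated replicate 3 (-1.26, limma adjusted p = 0.013). The largest adjusted p over the alternatives was 0.57 for Tsc1 and 0.45 for Tsc2. Tbc1d7, the remaining subunit, had -1.03 (limma adjusted p = 0.057) and passed with the replicate block (0.035), with an adjusted p of up to 0.43 over the alternatives.

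Rheb, the GTPase that activates mTORC1 directly, was the most abundant member. It measured 126, 206 and 197 TPM at 37°C and 113, 173 and 163 TPM at 26°C. Each replicate was slightly lower in the cold, by less than the spread between replicates, and the groups overlapped. The log2 fold change was -0.23 (SE 0.29, limma adjusted p = 0.60), and its sign turned to 0.18 with median of ratios scaling. Leaving out non-acclimated replicates 1 and 2 in turn gave -0.45 and -0.10, and leaving out cold-acclimated replicate 1 gave -0.04.

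Rhebl1, a close relative of Rheb named here after its values were seen, measured 14.3, 15.5 and 16.9 TPM at 37°C and 22.8, 34.0 and 27.4 TPM at 26°C. All cold-acclimated libraries lay above all non-acclimated ones. With a log2 fold change of 0.79 (SE 0.24) it did not pass (limma adjusted p = 0.055), although it passed as higher with the replicate block (0.033) and with median of ratios scaling (1.19, 0.021), and over the alternatives the adjusted p ran from 0.016 to 0.40.

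Rragc encodes a Rag GTPase that pairs with RagA or RagB to bring mTORC1 to the lysosome. It measured 79.9, 90.7 and 129 TPM at 37°C and 104, 102 and 130.5 TPM at 26°C. It was the only member higher in the cold in every replicate, although by little in replicate 3, and the groups overlapped. The log2 fold change was 0.19 (SE 0.26, limma adjusted p = 0.63), or 0.53 relative to all tested genes. Leaving out non-acclimated replicates 1 and 3 in turn gave 0.04 and 0.38, leaving out cold-acclimated replicate 3 gave 0.08, and median of ratios scaling gave 0.60. The ratio of Rheb to Rragc was 1.58, 2.28 and 1.53 at 37°C and 1.08, 1.70 and 1.25 at 26°C, lower in each replicate but overlapping (log2 difference -0.42, exact permutation p = 0.30). Without non-acclimated replicate 2 this difference was -0.24 and without cold-acclimated replicate 1 -0.28.

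Rps6kb1 encodes S6 kinase 1, a substrate through which mTORC1 promotes translation. It measured 19.3, 26.1 and 23.9 TPM at 37°C and 19.7, 22.1 and 16.9 TPM at 26°C. Replicate 1 was nearly equal between temperatures, the other 2 were lower in the cold, and the groups overlapped. Rps6kb1 had a log2 fold change of -0.23 (SE 0.24, limma adjusted p = 0.54), and it was 0.17 with median of ratios scaling. It was -0.35 and -0.14 when non-acclimated replicates 1 and 2 were left out in turn, and -0.13 without cold-acclimated replicate 3.

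Taken by level in TPM, which is per length, the order at 37°C was Rheb (177 ± 44.1, SD, n = 3), Rragc (99.7), Tsc2 (31.0), Rptor (23.2), Rps6kb1 (23.1), Akt1s1 (18.7), Tsc1 (18.4), Rictor (16.5), Mtor (15.5) and Mlst8 (13.5). Only the step from Rragc to Tsc2 had no overlap between the libraries of neighbouring genes. At 26°C Rheb (149.5 ± 32.2 TPM, SD, n = 3) and Rragc (112) again led, followed by Rictor (25.8), Akt1s1 (22.6), Rps6kb1 (19.6), Tsc2 (16.8), Mlst8 (13.0), Rptor (11.0), Tsc1 (9.78) and Mtor (8.48). Rictor was thus in place 8 at 37°C and in place 3 at 26°C, and again only the step below Rragc was free of overlap.

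Across the members, the libraries of the temperatures did not overlap for 3 of 10 genes, all lower in the cold (Mtor, Rptor and Tsc1), beside 31.4% of all tested genes, and for 0 in the other direction, beside 9.69%. These shares are near each other. After median of ratios scaling, Mtor and Rptor remained lower without overlap, beside 19.8% of genes, and Akt1s1, Rictor and Rragc were higher without overlap, beside 21.0%. In all 3 replicate pairs 6 members were lower, beside 47.9% of tested genes, and 1 was higher, beside 18.2%. The median log2 fold change of the members was -0.23, which is 0.11 above that of all tested genes, and 4 members lay below the latter. This difference was -0.04, -0.01 and -0.03 without non-acclimated replicate 1, cold-acclimated replicate 2 and cold-acclimated replicate 3, 0.00 with quantile normalization and -0.16 without a filter.

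The count of calls depended on the fit. With the replicate block 4 members were lower (Mtor, Rptor, Tsc1 and Tsc2) and 0 higher in limma, also at an unadjusted p under 0.05 (37.4% and 10.9% of all tested genes), when 29.0% of all tested genes were lower and 6.89% higher. Without both libraries of replicate 3, 3 members were lower (Mtor, Tsc1 and Tsc2), beside 28.9% of 12171 genes, and 0 higher, beside 6.96%, with 4 and 0 at an unadjusted p under 0.05, beside 36.5% and 10.5%. Without cold-acclimated replicate 3 alone 3 were lower, beside 24.5% of tested genes. Without replicate 1 or 2 of either group 0 were lower, in fits that called between 2.73% and 4.90% of tested genes lower. With median of ratios scaling 0 passed in either direction, beside 9.33% of tested genes lower and 8.64% higher, and at an unadjusted p under 0.05 0 were lower and 2 higher, beside 18.2% and 18.6%. Without replicate 1 or without replicate 2, 0 of all tested genes passed in limma, with 2011 and 1837 lower at an unadjusted p under 0.05.

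The wider pathway was described with 22 lists of 111 genes, of which 101 are not members. Of these 101 genes, 93 were tested, 23 were lower and 0 higher in limma at an adjusted p under 0.05, beside 17.4% and 3.30% of all tested genes. At an unadjusted p under 0.05, 32 were lower and 3 higher, beside 30.0% and 7.75% of all tested genes. Their median log2 fold change was -0.38, close to the -0.34 of all tested genes. With median of ratios scaling 12 were lower and 6 higher, beside 9.33% and 8.64% of all tested genes. With the replicate block they were 31 and 2, beside 29.0% and 6.89%, and without replicate 3 they were 30 and 1, beside 28.9% and 6.96%. Leaving out 1 library moved the count of lower genes to 3 and 2 without non-acclimated replicates 1 and 2 and to 3 and 5 without cold-acclimated replicates 1 and 2. Of all tested genes 4.29%, 2.73%, 3.82% and 4.90% were lower in these fits. For each of the 23 genes the largest adjusted p over the alternatives lay between 0.17 and 0.32. Voom on the recovered reads gave 22 lower and 0 higher, beside 14.8% and 4.28% of all tested genes.

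**Figure D3:**
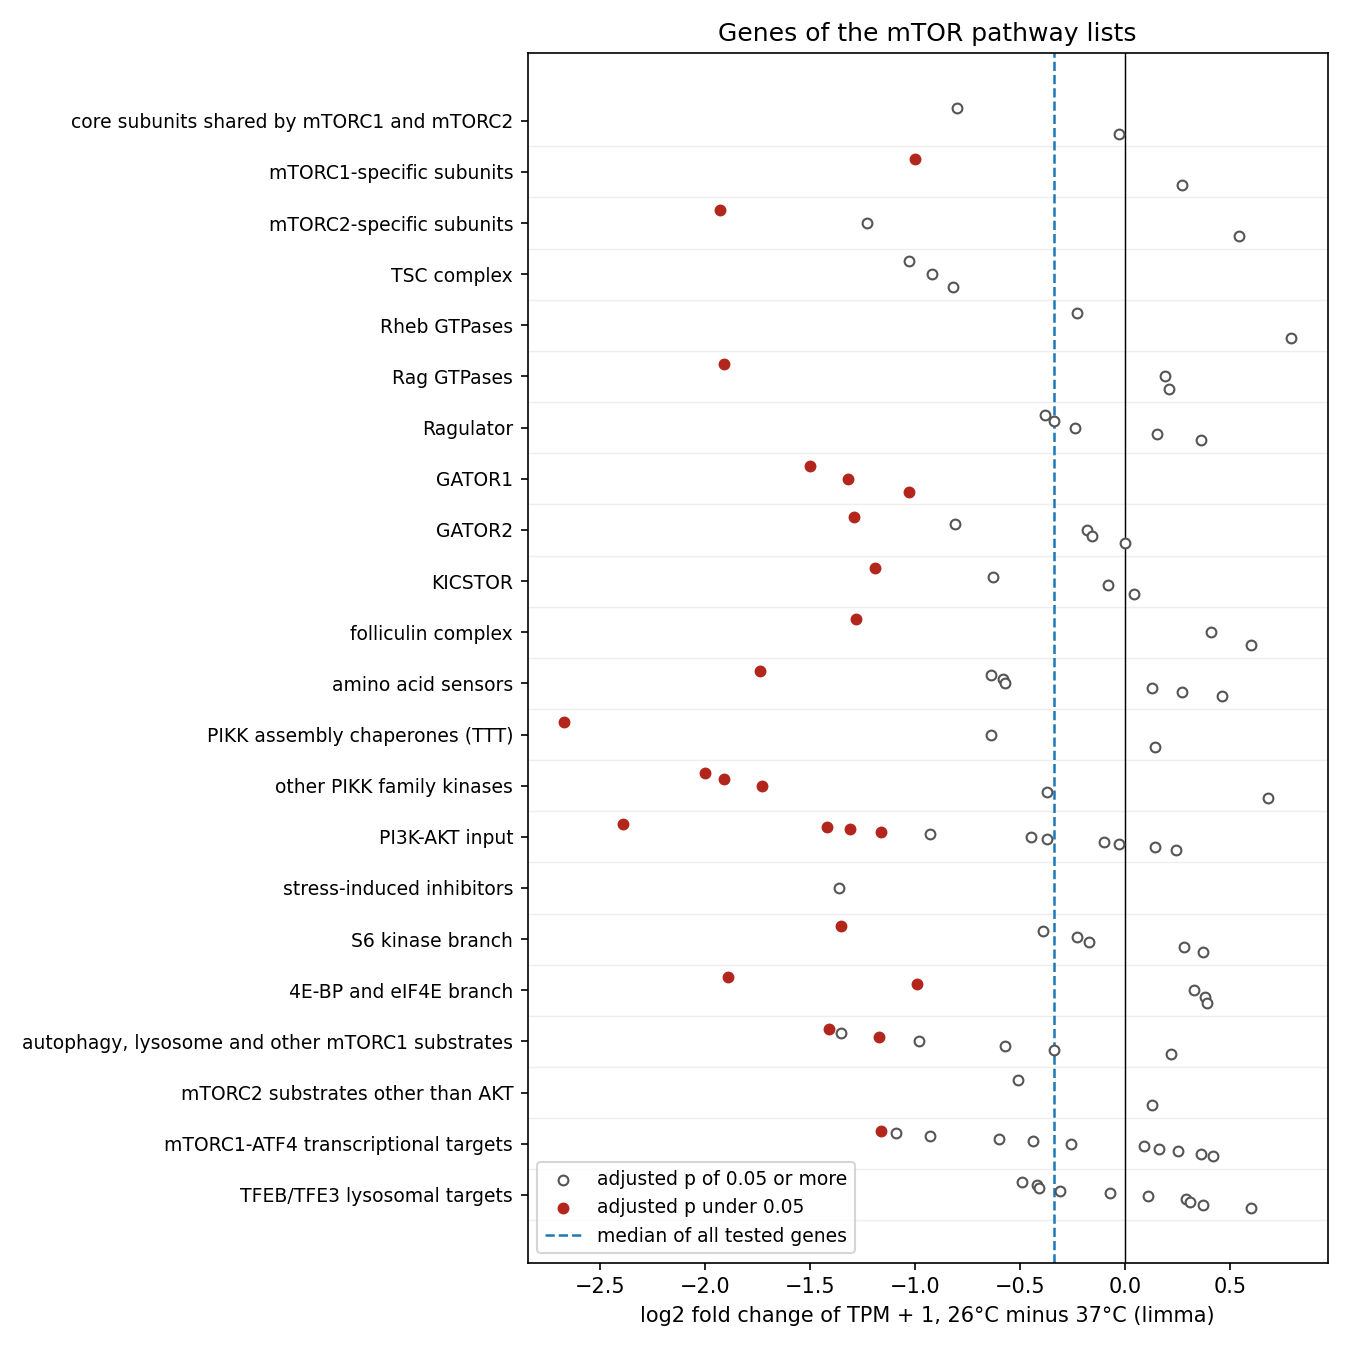
Log2 fold change of TPM + 1, 26°C minus 37°C (horizontal axis), of each tested gene of the 22 pathway lists, with filled points for an adjusted p under 0.05 in limma and a dashed line at the median of all 12227 tested genes. All 24 filled points lie below 0 with TPM as deposited, while 6 genes other than the members were higher with median of ratios scaling.

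Upstream of mTORC1 in the amino acid branch stands GATOR1, the complex that inactivates RagA and RagB when amino acids are scarce. All 3 of its genes were lower, beside 17.4% of all tested genes, with a median log2 fold change of -1.32, or -0.98 relative to all tested genes. Nprl3 measured 28.8, 24.7 and 20.8 TPM at 37°C and 9.41, 4.96 and 10.9 TPM at 26°C, with no overlap. Its log2 fold change was -1.50 (SE 0.32, limma adjusted p = 0.021), beside -1.32 for Depdc5 and -1.03 for Nprl2. Of the 3, 1 passed with median of ratios scaling and 0 with quantile normalization or length centring, fits in which 9.33%, 6.80% and 7.16% of all tested genes were lower. Without any 1 of replicates 1 and 2 of either group 0 passed, in fits that called between 2.73% and 4.90% of all tested genes lower. With libraries or replicates left out, log2 fold changes ran from -1.60 to -1.01 (Depdc5), -1.18 to -0.86 (Nprl2) and -1.81 to -1.19 (Nprl3).

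GATOR1 is itself restrained by GATOR2 and anchored by KICSTOR. Of the 5 GATOR2 genes 1, Wdr59, was lower, beside 17.4% of all tested genes (-1.29, limma adjusted p = 0.018), and Sec13, the most abundant at a mean of 216 TPM, did not pass. Kics2, the most abundant KICSTOR gene at 14.4 TPM, did not pass. Of the 7 genes listed as amino acid sensors 1, Castor2, was lower (-1.74, limma adjusted p = 0.022), beside 17.4% of all tested genes. Castor1 had the highest mean of the list, 245 TPM, and did not pass. The calls of Wdr59 and Castor2 ended without any 1 of replicates 1 and 2 of either group, and that of Castor2 also without non-acclimated replicate 3, with limma adjusted p between 0.053 and 0.083.

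The Rag GTPases sit on the Ragulator scaffold. Rragb, which encodes RagB, measured 8.81, 9.07 and 7.12 TPM at 37°C and 0.960, 1.39 and 2.22 TPM at 26°C. The groups lay far apart, with a log2 fold change of -1.91 (SE 0.30, limma adjusted p = 0.0091). Its relative Rraga, which encodes RagA, had 0.21 and did not pass (limma adjusted p = 0.67). Of the 5 Ragulator genes 0 passed in limma, beside 17.4% of all tested genes lower and 3.30% higher. At an unadjusted p under 0.05 there were 0 in limma, beside 30.0% lower and 7.75% higher, and 0 in voom, beside 26.2% and 9.91%. Lamtor3 was the most abundant at 107 TPM. Flcn, which encodes folliculin, an activator of RagC, was lower (-1.28, limma adjusted p = 0.020), while Fnip1, the most abundant of its complex at 22.4 TPM, did not pass. The Rragb call ended without non-acclimated replicate 2 (limma adjusted p = 0.051). The Flcn call ended with median of ratios scaling (0.055) and without any 1 of replicates 1 and 2 of either group (0.059 to 0.074).

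mTOR belongs to the PIKK family of large kinases, whose stability depends on the TTT chaperone. Tti1, a TTT subunit, measured 14.0, 13.3 and 13.3 TPM at 37°C and 1.09, 0.859 and 2.04 TPM at 26°C. With -2.67 (SE 0.29, limma adjusted p = 0.0067) it had the lowest log2 fold change of all genes in the 22 lists. Tti2, the most abundant TTT gene at 37.6 TPM, did not pass. Of the 5 other PIKK genes the DNA damage kinases Atm (-2.00), Atr (-1.91) and Prkdc (-1.73) were lower, beside 17.4% of all tested genes, with limma adjusted p between 0.0093 and 0.025. Tti1 and Atm passed whichever 1 library was left out. The Atr call ended without non-acclimated replicates 1 and 2 and cold-acclimated replicate 1, and the Prkdc call without any 1 library other than cold-acclimated replicate 3 (limma adjusted p between 0.051 and 0.093). Smg1, the kinase of nonsense-mediated decay and the most abundant of these at 51.1 TPM, measured 43.3, 39.8 and 32.8 TPM at 37°C and 68.7, 74.8 and 47.0 TPM at 26°C. All its cold-acclimated values lay above all non-acclimated ones, with a log2 fold change of 0.68 that did not pass (limma adjusted p = 0.097). It passed as higher with the replicate block (limma adjusted p = 0.039), when cold-acclimated replicate 3 was left out (0.88, 0.031) and after median of ratios scaling (1.09, 0.040), and over the alternatives the adjusted p ran from 0.015 to 0.47.

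Growth factor input reaches the TSC complex through PI3K and AKT. Its list holds 11 genes, of which 4 were lower and 0 higher in limma, beside 17.4% and 3.30% of all tested genes. Pdpk1, whose kinase activates AKT, measured 33.2, 30.2 and 38.7 TPM at 37°C and 2.92, 3.47 and 15.7 TPM at 26°C. The cold-acclimated value of replicate 3 was well above the other 2 and still below all non-acclimated ones (log2 fold change -2.39, SE 0.54, limma adjusted p = 0.023). The PI3K catalytic gene Pik3cd (-1.31) and the PI3K regulatory gene Pik3r2 (-1.16) were also lower, with limma adjusted p of 0.040 and 0.029, and did not pass with median of ratios scaling. Leaving out any 1 of replicates 1 and 2 of either group ended the calls of Pdpk1, Pik3cd and Pik3r2, and leaving out non-acclimated replicate 3 those of Pdpk1 and Pik3cd (limma adjusted p between 0.052 and 0.12). Akt1, the most abundant at 344 TPM, did not pass. Ddit4, a stress-induced inhibitor acting through the TSC complex, measured 136, 115 and 134 TPM at 37°C and 34.4, 28.7 and 119 TPM at 26°C. It was far lower in replicates 1 and 2 and little lower in replicate 3, and it did not pass (log2 fold change -1.36, limma adjusted p = 0.091). It passed with the replicate block (limma adjusted p = 0.032) and without cold-acclimated replicate 3 (-1.99, 0.0026), with an adjusted p of up to 0.42 over the alternatives.

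Downstream of mTORC1, 1 of 6 genes of the S6 kinase branch was lower, near the 17.4% of all tested genes. This was Eef2k, which encodes the kinase of elongation factor 2 (-1.35, limma adjusted p = 0.024), while the ribosomal protein gene Rps6, at a mean of 2439 TPM, did not pass. In the 4E-BP branch, which blocks cap-dependent translation until mTORC1 phosphorylates it, Eif4ebp3 (-1.89, limma adjusted p = 0.016) and Eif4ebp2 (-0.99, limma adjusted p = 0.035) were lower. They were 2 of 5 tested genes, with 0 higher, beside 17.4% lower and 3.30% higher of all tested genes. The median log2 fold change of this list was 0.33, or 0.67 relative to all tested genes. Larp1, the most abundant gene of that list at 239.8 TPM, did not pass. Of the 7 tested autophagy and lysosome genes 2 were lower, beside 17.4% of all tested genes. These were Ulk1 (-1.41) and Ulk2 (-1.17), both autophagy-initiating kinases, with limma adjusted p of 0.019 and 0.037. Maf1, a repressor of RNA polymerase III and the most abundant gene of this list at 159 TPM, did not pass. With median of ratios scaling Eef2k (0.073), Eif4ebp2 (0.11) and Ulk2 (0.12) did not pass in limma. All 5 of these calls ended without any 1 of replicates 1 and 2 of either group, that of Eif4ebp2 also without non-acclimated replicate 3 and that of Ulk2 without cold-acclimated replicate 3 (limma adjusted p between 0.051 and 0.13).

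Transcription is a further output of the pathway. Of 11 tested genes that mTORC1 drives through ATF4, Mthfd2, a mitochondrial folate enzyme, was the 1 that was lower (-1.16, limma adjusted p = 0.031), beside 17.4% of all tested genes, and Phgdh, the most abundant at 636 TPM, did not pass. The Mthfd2 call ended with median of ratios scaling (0.086) and without any 1 of replicates 1 and 2 of either group (0.098 to 0.12). Of 10 lysosomal genes under TFEB and TFE3, 0 passed in limma, beside 17.4% of all tested genes lower and 3.30% higher. At an unadjusted p under 0.05 there were 0 in limma, beside 30.0% lower and 7.75% higher. In voom 1 was higher at an unadjusted p under 0.05, beside 9.91% of all tested genes. The median log2 fold change of the lysosomal genes was 0.02, and Lamp1 was the most abundant at 575 TPM. Of the 2 tested mTORC2 substrates apart from AKT 0 passed in limma, with 0 at an unadjusted p under 0.05, beside the same limma shares. Prkca was the more abundant of these substrates at 5.98 TPM. Of the 10 lysosomal genes 2 were higher with median of ratios scaling, beside 8.64% of all tested genes.

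Gene Ontology terms for TOR signalling in the deposited table, among them terms for mTORC1 and mTORC2 signalling, gave a further list. Members and genes of the pathway lists were not removed from it. Of its 142 tested genes 28 were lower and 2 higher in limma, beside 17.4% and 3.30% of all tested genes, with a median log2 fold change of -0.18. With median of ratios scaling 15 were lower and 11 higher, beside 9.33% and 8.64%, and with the replicate block 46 and 7, beside 29.0% and 6.89%. Tested genes annotated to negative regulation alone numbered 45, of which 7 were lower and 1 higher (median -0.12). Those annotated to positive regulation alone numbered 41, of which 8 were lower and 1 higher (median -0.24). The medians of activators and inhibitors were thus close, and both were above that of all tested genes.

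The genes with the values most like those of Mtor over the 6 libraries were Bet1, Ccdc61 and Pgpep1. Their Pearson correlations with Mtor in log2(TPM + 1) were 0.9994, 0.9993 and 0.9990. Bet1 measured 86.0, 87.7 and 46.7 TPM at 37°C and 11.5, 13.4 and 20.5 TPM at 26°C, with the same order of libraries as Mtor in its narrower gap in replicate 3. Of the 9742 genes compared, 1524 had a correlation of at least 0.9, so such likeness was common. Among the members Tsc1 was closest to Mtor (0.91), followed by Rptor and Tsc2 (both 0.80).

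The members are spread over 7 chromosomes, and among them Mlst8 (chr17:24692524-24698722) and Tsc2 (chr17:24814788-24851607), both on the minus strand, lie close together. In GRCm39, as the deposited table gives them, Mtor lies on the plus strand at chr4:148533039-148642142 and Rptor on the plus strand at chr11:119493731-119790417. Rictor lies on the plus strand at chr15:6737827-6829882. The spans of all 10 members overlapped the GENCODE gene with the same identifier on the same strand. Gene length read from the TPM steps was 8595 bases for Mtor, 8237 for Rptor and 9490 for Rictor, all in the longest 2 of 10 length classes, whose median log2 fold changes were -0.41 and -0.43. Rptor and Rictor, of similar length, had log2 fold changes of opposite sign, and that of Rictor did not pass. With length centring they were -0.48 for Rptor (limma adjusted p = 0.24) and 1.06 for Rictor (limma adjusted p = 0.049). The part of gene length in these values was not tested. Opposite-strand genes overlap other members too: Rptoros, a noncoding gene, shares 13555 bases with Rptor, and Pkd1 shares 670 bases with Tsc2. Rptoros measured 3.05, 7.07 and 4.06 TPM at 37°C and 1.25, 0.947 and 1.44 TPM at 26°C. Pkd1 measured 10.9, 9.91 and 6.12 TPM at 37°C and 2.04, 2.18 and 2.36 TPM at 26°C. Both were lower in the cold in every replicate, as were Rptor and Tsc2, and with the strand setting unknown the part of this in the members' values was not tested.

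Promoters from RefSeq (GRCm38.p6 table, 1 for each of the 10 members) were searched over the 250 bases before the RefSeq start of each gene for 4 motifs on both strands. CCGGAAGT (or ACTTCCGG), an ETS-type motif, was in 3 of 10 member windows (Akt1s1, Mtor and Tsc2) and in 2.88% of all 32851 windows. GGGCGG was in 5 member windows and in 32.7% of all. CCAAT was in 3 member windows and in 33.8% of all, and CACGTG in 2 (Rheb and Rragc) and in 6.02%. On the opposite strand GGGCGG reads as CCGCCC and the CCAAT motif as ATTGG, while CACGTG reads the same on both. A match describes letters only and is not a binding site.

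The stretches for Mtor, Rptor and Rictor are shown because these are the kinase gene and the defining scaffolds of each complex, which had opposite signs of log2 fold change. Each was located in GRCm39 by an exact match and stops before the first base of any annotated exon, on the plus strand at chr4:148532789-148533014, chr11:119493481-119493730 and chr15:6737612-6737826. Capitals mark matches to the 4 motifs, and in Rictor a CCGCCC match and a CCAAT match overlap. The windows of Mtor and Rictor had GC contents of 54.4% and 81.2%, beside 37.6% for Rptor, which holds no match, and a median of 52.4% over all windows.
Mtor: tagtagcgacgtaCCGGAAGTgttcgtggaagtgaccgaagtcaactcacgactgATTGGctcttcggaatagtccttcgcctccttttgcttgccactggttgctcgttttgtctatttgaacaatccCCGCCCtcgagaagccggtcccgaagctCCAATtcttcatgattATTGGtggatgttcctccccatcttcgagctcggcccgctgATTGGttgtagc
Rptor: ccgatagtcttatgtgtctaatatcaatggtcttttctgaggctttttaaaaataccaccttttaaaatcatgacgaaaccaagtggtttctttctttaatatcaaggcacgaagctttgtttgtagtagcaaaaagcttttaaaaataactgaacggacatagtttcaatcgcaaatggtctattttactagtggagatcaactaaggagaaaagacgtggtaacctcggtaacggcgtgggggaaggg
Rictor: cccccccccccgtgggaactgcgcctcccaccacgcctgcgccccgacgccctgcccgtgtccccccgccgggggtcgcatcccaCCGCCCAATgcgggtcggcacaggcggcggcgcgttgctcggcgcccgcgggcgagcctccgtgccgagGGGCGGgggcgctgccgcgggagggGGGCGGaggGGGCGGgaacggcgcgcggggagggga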

How the data were processed

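The authors made poly(A)-selected, stranded, paired-end libraries, and their processing notes name FastQC 0.11.7, Trimmomatic 0.38, HISAT2 2.1.0, featureCounts 1.6.3 and the build GRCm39. TPM values were used as deposited. No annotation release, strand setting or route from counts to TPM was found in those notes. Read numbers and gene lengths came from the smallest step shared by a gene's TPM values. The authors tested counts with DESeq2; because TPM are not counts, limma 3.58.1 in R 4.3.3 with a mean-variance trend was fitted to log2(TPM + 1) for genes averaging at least 1 TPM, with temperature as the only term and Benjamini-Hochberg adjustment. Ratios were tested by an exact 2-sided permutation test. Python 3.11.15, numpy 2.4.6, pandas 2.3.3, scipy 1.17.1 and matplotlib 3.10.9 were used. The read recovery and the fits were tested on simulated data.

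The members and the lists were chosen with earlier results of these data known. Named genes were the 10 members, in each pathway list the genes with an adjusted p under 0.05 (at most the 5 with the smallest p) and the most abundant tested gene, the 3 genes averaging at least 5 TPM most correlated with Mtor, and the most abundant gene of each marker list. Not every gene that meets this rule is named. Other names are there to complete a complex and were chosen after their values were seen.

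Deviations from the group means correlated across genes at 0.48, 0.503 and 0.512 between libraries with the same replicate number and at -0.408 to 0.019 between others, so libraries were compared by number; the labels do not say what a number stands for. Alternatives were a pseudocount of 0.1, no filter, a mean TPM of at least 5, median of ratios scaling (named in the study's methods), quantile normalization, centring within 10 classes of gene length, voom on the recovered reads, the replicate block with and without median of ratios scaling, and leaving out each library or each replicate.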

Additional observations from a re-analysis of the deposited data

How the results depend on the processing

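The count of members lower in the cold, 1 as reported, was 4 with the replicate block and 0 without a filter, with median of ratios scaling, quantile normalization, length centring, or the block with median of ratios scaling, and it ranged from 0 to 3 when a library or a replicate was left out. The count of members higher, 0 as reported, was 1 with length centring and 1 with the block and median of ratios scaling, where 10.4% and 16.9% of all tested genes were higher. Of the other pathway genes, 23 lower and 0 higher as reported, 11 were lower without a filter, beside 6.42% of all tested genes. Median of ratios scaling gave 12 lower and 6 higher, beside 9.33% and 8.64% of all tested genes. Quantile normalization gave 9 and 2, beside 6.80% and 6.92%, and length centring 7 and 8, beside 7.16% and 10.4%. The replicate block gave 31 and 2, beside 29.0% and 6.89%, and the block with median of ratios scaling 20 and 16, beside 16.9% and 16.9%. Left-out libraries or replicates gave 0 to 30 lower and 0 to 1 higher. The median of the members relative to all tested genes, 0.11, ranged from -0.04 to 0.23 with libraries left out and was 0.00 with quantile normalization and -0.16 without a filter, where 21195 genes with a median of -0.07 were tested. The cause of the other changes was not tested.

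Signs turned for members that had not passed. Mlst8 was 0.34 with median of ratios scaling, with and without the block, 0.54 with quantile normalization, 0.53 with length centring, 0.05 with voom, and -0.54 to 0.49 with libraries left out. Rheb was 0.18 with median of ratios scaling, with and without the block, and 0.19 with length centring, and it ran from -0.45 to -0.04 with libraries left out. Rps6kb1 was 0.17 with median of ratios scaling, with and without the block, 0.26 with quantile normalization and 0.29 with length centring. The log2 ratio of Tsc1 to Tsc2 ranged from -0.29 to 0.53 with libraries left out, that of Rictor to Rptor from 1.17 to 2.23, that of Mlst8 to Mtor from 0.38 to 1.51 and that of Rheb to Rragc from -0.60 to -0.24. The 23 called pathway genes kept their sign in 413 of 413 refits and their call in 224.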
